A study of Oryza sativa Japonica Group with 3 samples.

Results

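The members described here are the cellulose synthase (CESA) and cellulose synthase-like (CSL) genes of rice. A gene was taken as a member when its description in the deposited table held the words cellulose synthase, or when its symbol began with CESA, CSL or ND1. The rule found 44 of the 35664 genes of the table, 11 CESA and 33 CSL genes. The CSL genes fell into class A with 10 genes, class C with 6, class D with 5, class E with 3, class F with 6 and class H with 3. ND1 is the symbol the table gives to CSLD4 (OS12G0555600), and the members CESA4 and CESA9 carry the symbols BC7 and BC6, from brittle culm mutants.

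RNA was sequenced from root tips of 1 cm cut from seedlings of the cultivar Nipponbare aged 7 days, in 2 RNA pools with 4 libraries each. The poly(A) pool came from the line p35S:HF-FLAG-OsRPL18, which expresses a tagged ribosomal protein L18, and its messenger RNA was captured on oligo(dT). Nuclear RNA was taken from the line p35S:OsNTF2, whose nuclei carry a biotin tag and were pulled out on streptavidin beads, after which ribosomal RNA was degraded. The 35S promoter, which is active in most plant cells, drives the tag in both lines, and both groups thus carry a transgene. The labels give full-strength growth medium for the poly(A) plants and a weaker one for the nuclear plants, while the design text of the series gives 1 strength for all. RNA pool, line, RNA selection and, by the labels, medium changed together, so their parts in a difference cannot be told apart. Nuclei of the shoot base, a further sample of the series, were not analysed here.

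Cellulose is spun out at the plasma membrane by rosettes built from different CESA proteins, each a glycosyltransferase that extends a glucan chain from UDP-glucose. In rice, CESA1, CESA3 and CESA8 are regarded as subunits of the complex of the growing primary wall, with CESA5 and CESA6 related to them, while CESA4, CESA7 and CESA9 make up the complex of the secondary wall of xylem and fibres. The CSL proteins are relatives that make other polysaccharides: class A enzymes make mannans, class C enzymes the glucan backbone of xyloglucan, and classes F and H the mixed-linkage glucan typical of grasses. Class D proteins are known for tip growth and cell expansion, and the product of class E is not well known.

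Levels are given as RPKM, the reads of a gene per kilobase of its length and scaled by the reads of the library, so that levels of different genes can be set side by side. Reads recovered from these values totalled 19411234 to 29943165 in the poly(A) libraries and 1072511 to 2287770 in the nuclear libraries. The nuclear values of weakly expressed members therefore rest on few reads. Differences are nuclear minus poly(A) on the scale of log2(RPKM + 1), on which changes at low levels come out too small. They were tested with limma over all 26928 genes with a mean of at least 1 RPKM in either pool, and a gene was called at an adjusted p under 0.05. A gene with a mean under 1 RPKM in 1 pool was tested only because of the other pool, which favours a difference toward that pool. Over all tested genes the median difference was 0.08. Root identity was checked with 4 root genes: the mean of RCc3 was 1799 RPKM in poly(A) and 698 RPKM in nuclear RNA, and LSI1, LSI2 and SHR1 were also detected in every library. The shoot meristem gene OSH1 was at 0 in all libraries. Among 19 genes matched by the words for chlorophyll a/b-binding proteins or the Rubisco small subunit, 5 were at 0 in all libraries, and 1 of these 5, GHD7, is a flowering regulator caught by its domain name. Their levels were low: the list summed to 17.5 to 29.9 RPKM in poly(A) and 39.2 to 63.8 RPKM in nuclear libraries. Of the 10 tested, 4 were called higher and 1 lower in nuclear RNA, or 40.0% and 10.0%, against 33.1% and 30.0% of all tested genes. The part of cells with such transcripts in the results below was not tested.

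Of the 44 members, 37 passed the filter on low values. CSLD3, CSLF7 and CSLF9 passed the filter only through the nuclear pool, and CSLF8 only through the poly(A) pool. Their calls are thus not independent of the filter. In nuclear RNA, 15 of the 37 were higher, or 40.5%, against 33.1% of all tested genes. A further 9 of the 37 were lower, or 24.3%, against 30.0% of all tested genes, and 13 were not called. All nuclear libraries lay above all poly(A) libraries for 16 members, against 31.7% of all tested genes, and below them for 9 members, against 29.4%. The pools overlapped for 12 members. The median difference was 0.26 over the tested members, -0.02 over the 11 CESA genes and 0.40 over the 26 tested CSL genes. That of the CESA genes turned to 0.24 with equal library sums and 0.25 with quantile normalization. Under the same scalings the median of all tested genes was 0.29 and 0.00, against 0.08 on the authors' scaling. In whole tissue of this kind, fewer cells of a type and less RNA per cell cannot be told apart.

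**Figure D1:**
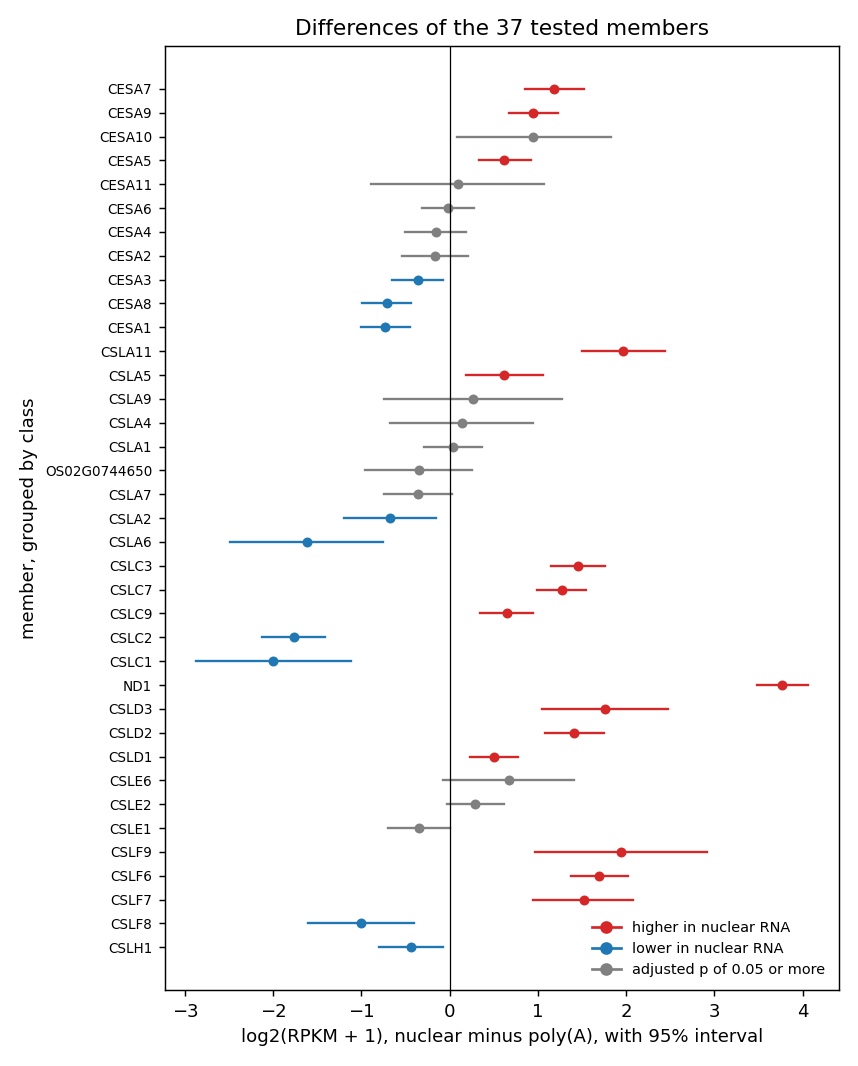
Difference of each of the 37 tested members (points) with its 95% interval (lines), nuclear minus poly(A) on the log2(RPKM + 1) scale, grouped by class. ND1 stands farthest to the right at 3.77, CSLC1 farthest to the left at -2.0, and the CESA genes lie between -0.73 and 1.18.

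CESA1, CESA3 and CESA8, the primary wall subunits, were the most abundant members of the poly(A) pool together with CESA6. CESA8 was at 227, 233, 209 and 205 RPKM in poly(A) replicates 1 to 4 and at 132, 145, 134 and 121 RPKM in nuclear replicates 1 to 4. CESA1 was at 223, 224, 199.8 and 193 RPKM in the poly(A) libraries and at 128, 138, 118 and 121 RPKM in the nuclear libraries. For both genes every nuclear library lay below every poly(A) library. CESA1 fell from 209.9 ± 15.9 to 126 ± 8.93 RPKM (SD, n = 4 each), a log2 difference of -0.73 with a standard error of 0.12 (limma, adjusted p = 8.93e-04). CESA8 had a difference of -0.71 (limma, adjusted p = 9.09e-04). Both calls were lost when the libraries were given equal distributions by quantile normalization, where CESA1 differed by -0.04 and CESA8 by 0.00. They were kept with equal library sums, at -0.47 and -0.45.

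CESA3 was at 171, 175, 157 and 144 RPKM in poly(A) libraries and at 118, 134, 128 and 121 RPKM in nuclear libraries. These ranges did not overlap, with the lowest poly(A) value just above the highest nuclear value. Its difference was -0.36 (limma, adjusted p = 0.0298), and it turned to 0.25 under quantile normalization. The call was also lost with equal library sums, where the difference was -0.10, and without poly(A) replicate 1, 2 or 3, where it was -0.34, -0.32 and -0.38.

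The call of CESA6 depended on the scaling. It was at 135, 140.5, 119.6 and 118 RPKM in poly(A) libraries and at 119, 137, 118 and 129.6 RPKM in nuclear libraries, and the pools overlapped. Its difference was -0.02, with a 95% interval from -0.31 to 0.27 (limma, adjusted p = 0.882). It was called higher under quantile normalization, at 0.54 (limma, adjusted p = 0.00759), and lower with a trend on gene length taken off, at -0.47 (limma, adjusted p = 0.0106). CESA5, a close relative, was at 51.7, 53.1, 47.5 and 45.9 RPKM in poly(A) and at 81.5, 86.6, 72.1 and 68.5 RPKM in nuclear libraries. All nuclear values of CESA5 lay above all poly(A) values, and its difference was 0.62 (limma, adjusted p = 0.00300). With that trend taken off, the difference of CESA5 was 0.17 and no longer called. In the nuclear pool CESA1, CESA3, CESA6 and CESA8 had nearly equal mean levels of 126, 125, 126 and 133 RPKM, and their libraries overlapped, whereas their poly(A) means ranged from 128 to 219 RPKM.

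The secondary wall subunits had nearly equal levels in poly(A) RNA but not in nuclear RNA. CESA7 was at 69.6, 64.7, 58.8 and 55.1 RPKM in poly(A) libraries and at 152, 165, 127 and 127 RPKM in nuclear libraries. CESA9 was at 61.9, 57.3, 51.9 and 50.8 RPKM in poly(A) and at 115, 105, 104 and 108 RPKM in nuclear libraries. Every nuclear library was above every poly(A) library for both genes. CESA7 rose from 62.1 ± 6.41 to 143 ± 18.9 RPKM (SD, n = 4 each), a difference of 1.18 (limma, adjusted p = 1.45e-04), and CESA9 had a difference of 0.95 (limma, adjusted p = 1.83e-04).

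CESA4, the third subunit of that complex, was at 65.4, 60.9, 54.8 and 52.2 RPKM in poly(A) libraries and at 58.9, 59.6, 46.6 and 44.6 RPKM in nuclear libraries. Its pools overlapped, and its difference of -0.16 was not called (limma, adjusted p = 0.389, 95% interval -0.51 to 0.19), though with the length trend taken off it was called lower at -0.54. Because a factor common to all genes of a library cancels in a ratio of members within it, the subunits were also compared as ratios. The ratio of CESA4 to CESA7 was 0.940, 0.940, 0.931 and 0.948 in poly(A) libraries and 0.387, 0.361, 0.367 and 0.351 in nuclear libraries. The log2 ratio was lower in nuclear RNA by a difference of -1.36 ± 0.03 (SE), with the pools apart.

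**Figure D2:**
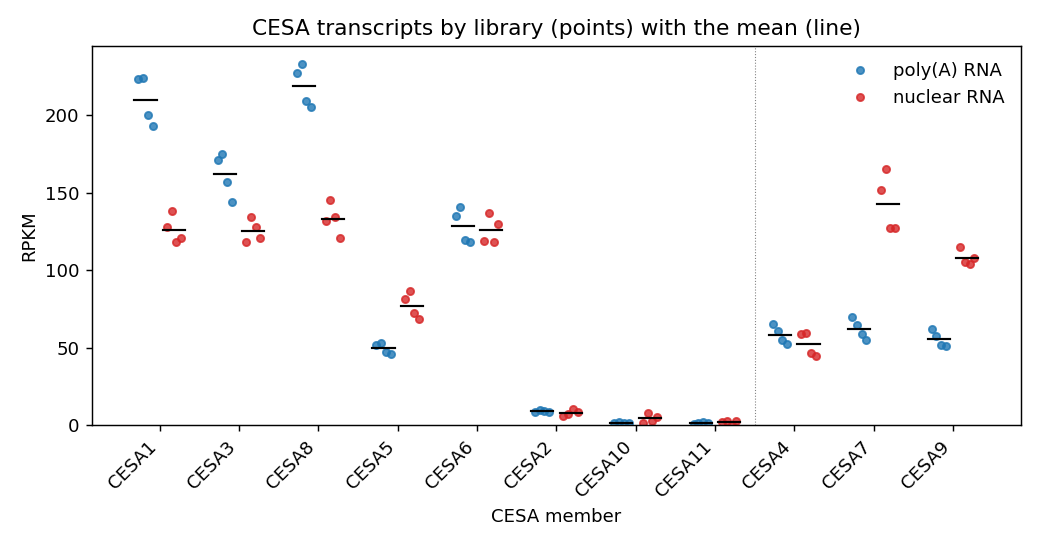
RPKM of the 11 CESA genes in each library (points, poly(A) blue, nuclear red) with the mean of the pool (black line); secondary wall genes stand right of the dotted line. On the authors' scaling CESA1 and CESA8 are lower in every nuclear library, which quantile normalization did not keep, CESA7 and CESA9 are higher in every nuclear library, and CESA6 and CESA4 overlap.

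The 6 pairs set side by side were chosen after their values were seen, so they are a description with no test. The pools did not overlap for 5 of them. Among all single tested genes, the nuclear libraries lay above all poly(A) libraries for 31.7% and below them for 29.4%. How often the ratios of other gene pairs overlap was not computed. CESA4 over CESA9 had a mean of 1.05 in poly(A) and 0.485 in nuclear RNA, a log2 difference of -1.13. CESA9 over CESA7 had means of 0.894 and 0.767, a difference of -0.23. CESA3 over CESA8 was at 0.739 ± 0.0240 in poly(A) and 0.945 ± 0.0439 in nuclear RNA (SD, n = 4 each). CESA1 over CESA8 was at 0.959 ± 0.0170 in poly(A) and 0.95 ± 0.050 in nuclear RNA, an overlap. The summed level of CESA4, CESA7 and CESA9 was 0.298 ± 0.0134 times that of CESA1, CESA3 and CESA8 in poly(A) RNA and 0.789 ± 0.0556 times in nuclear RNA. CESA5 and CESA6 were left out of these sums. Their means were 49.6 and 128 RPKM in poly(A) and 77.2 and 126 RPKM in nuclear RNA.

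The other CESA genes were weakly expressed. CESA2 was at 8.83, 9.51, 8.87 and 8.33 RPKM in poly(A) and at 6.12, 7.03, 10.3 and 8.26 RPKM in nuclear libraries, an overlap with a difference of -0.17 (limma, adjusted p = 0.395), and it was called lower with the length trend taken off, at -0.65. CESA10 was at 1.3, 2.15, 1.33 and 1.16 RPKM in poly(A) and at 1.35, 7.89, 2.90 and 5.31 RPKM in nuclear libraries, which held 31 reads of it in all. The lowest nuclear library of CESA10 was within the poly(A) range. Its difference of 0.95 was not called (limma, adjusted p = 0.0561) but was called with equal library sums, at 1.13, with the length trend taken off, at 1.09, with limma's voom on the recovered reads, at 1.56, and without nuclear replicate 1, at 1.29. CESA11 was at 0.928, 1.38, 1.85 and 1.75 RPKM in poly(A) and at 1.90, 3.03, 0 and 2.99 RPKM in nuclear libraries. It was not called, at 0.09 (limma, adjusted p = 0.857), and without nuclear replicate 3, the library at 0, its difference was 0.56 and called.

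ND1, a class D gene whose mutants in rice are dwarfed with narrow leaves, had the largest difference of the 37 tested members. It was at 9.85, 9.10, 10.1 and 7.90 RPKM in poly(A) libraries and at 144, 145, 126 and 139 RPKM in nuclear libraries. The pools were far apart, with little spread in either. The level rose from 9.25 ± 1.00 to 139 ± 8.63 RPKM (SD, n = 4 each), a difference of 3.77 with a standard error of 0.13, or 13.7-fold on the scale used (limma, adjusted p = 3.10e-07). The read counter's strand setting is not given in the sources used here, so reads of an overlapping or antisense transcript could not be told apart from its own.

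The other class D genes moved the same way by less. CSLD1, known in rice for root hair growth, was at 27.0, 31.4, 26.9 and 30.2 RPKM in poly(A) and at 41.5, 38.9, 43.9 and 40.6 RPKM in nuclear libraries. The pools did not overlap, and the difference was 0.50 (limma, adjusted p = 0.00586). CSLD2 rose from 11.1 to 31.4 RPKM, a difference of 1.41 (limma, adjusted p = 4.86e-05). CSLD3 was at 0.851, 0.984, 0.810 and 0.978 RPKM in poly(A) and at 7.19, 2.15, 7.06 and 7.29 RPKM in nuclear libraries, with nuclear replicate 2 well below the others yet above all poly(A) values. Its difference was 1.76 (limma, adjusted p = 0.00117). ND1 and CSLD1 changed order: ND1 over CSLD1 was 0.324 ± 0.0564 in poly(A) and 3.38 ± 0.358 in nuclear RNA, a log2 difference of 3.39. The length behind the RPKM of CSLD1 was 1144 nt, against 4122 nt for ND1, and a length trend does not cancel in this ratio. The fifth class D gene, CSLD5, was below 0.5 RPKM in every library and was not tested.

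CSLF6, the main synthase of mixed-linkage glucan, was the most abundant member of the nuclear pool and the sixth of the poly(A) pool by mean RPKM. It was at 94.8, 95, 87.9 and 81.2 RPKM in poly(A) libraries and at 317, 339, 266 and 253 RPKM in nuclear libraries. Every nuclear library was above every poly(A) library, and the difference was 1.69 with a standard error of 0.14 (limma, adjusted p = 1.60e-05). CSLF6 made up 0.153 ± 0.00664 of the summed RPKM of all CSL genes in poly(A) and 0.262 ± 0.0233 in nuclear RNA (SD, n = 4 each).

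The other class F genes were low. CSLF9 was at 0.971, 0.772, 1.45 and 0.348 RPKM in poly(A) and at 3.34, 12.3, 2.91 and 10.1 RPKM in nuclear libraries. The nuclear values were all higher and fell into a high and a low pair, with a difference of 1.94 ± 0.43 (SE; limma, adjusted p = 0.00388). CSLF7 rose from 0.361 to 3.07 RPKM, a difference of 1.52 (limma, adjusted p = 7.17e-04). CSLF8 went the other way, from 2.41 to 0.799 RPKM, a difference of -1.0 (limma, adjusted p = 0.00972) that rested on 15 nuclear reads. CSLF1 and CSLF2 did not pass the filter.

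Class C, the xyloglucan glucan synthases, had 3 of 5 tested genes higher and 2 lower in nuclear RNA, where 33.1% of all tested genes were higher and 30.0% lower. CSLC3 was at 52.4, 46.2, 52.8 and 41.4 RPKM in poly(A) and at 133, 141, 121 and 139 RPKM in nuclear libraries. CSLC7 rose from 41.9 to 102 RPKM and CSLC9 from 8.77 to 14.4 RPKM. All 3 genes had every nuclear library above the poly(A) libraries, with differences of 1.46, 1.27 and 0.65 (limma, adjusted p = 2.50e-05, 3.73e-05 and 0.00279).

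In the same class, CSLC1 was at 28.8, 34.1, 28.6 and 29.3 RPKM in poly(A) and at 9.32, 6.21, 2.50 and 13.3 RPKM in nuclear libraries. The nuclear libraries were all lower but spread widely, on 41 reads in all. Its difference of -2.0 was the lowest among the members (limma, adjusted p = 0.00193). The length behind the RPKM of CSLC1 was 912 nt, shorter than the 1794 to 2560 nt of the other class C genes. CSLC2 fell from 20.6 to 5.40 RPKM, a difference of -1.77 (limma, adjusted p = 2.22e-05), with no overlap. CSLC10 did not pass the filter.

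**Figure D3:**
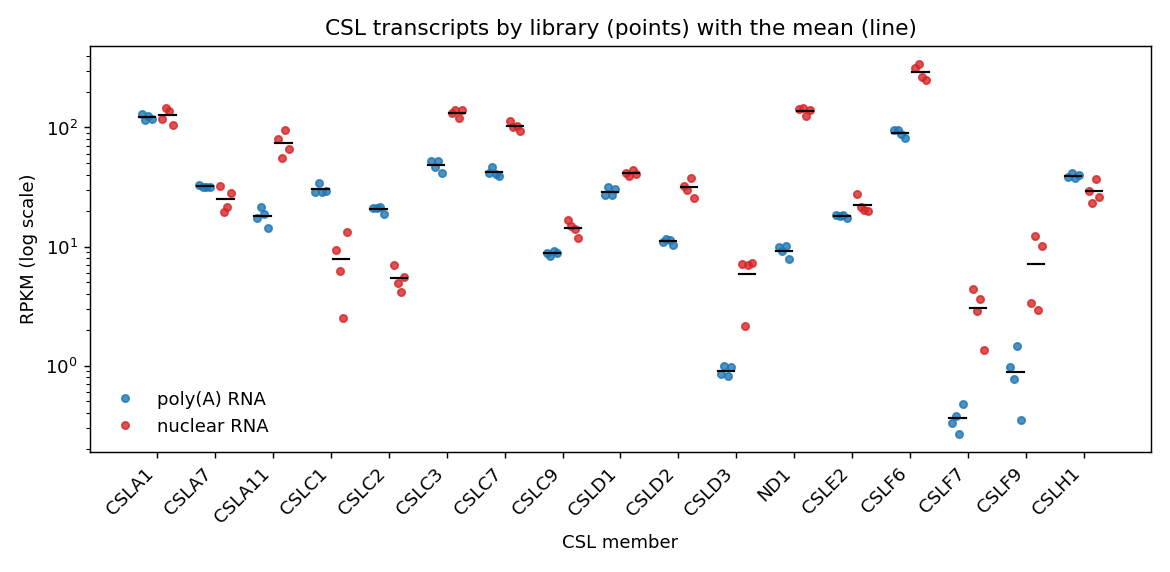
RPKM on a log axis of 17 CSL genes in each library (points, poly(A) blue, nuclear red) with the mean of the pool (black line). ND1 and CSLF6 are higher in every nuclear library, CSLC1 and CSLC2 are lower in every nuclear library, and CSLA1 overlaps.

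In class A, the mannan synthases, 2 of 9 tested genes were higher, 2 lower and 5 not called. That was 22.2% in each direction, against 33.1% of all tested genes higher and 30.0% lower. CSLA1, the most abundant, was at 129, 116, 126 and 117 RPKM in poly(A) and at 119, 145, 137 and 104 RPKM in nuclear libraries. The nuclear values straddled the poly(A) values, and the difference was 0.04, with a 95% interval from -0.29 to 0.37 (limma, adjusted p = 0.814). Under quantile normalization it was called higher, at 0.58. CSLA11 was at 17.4, 21.5, 18.7 and 14.4 RPKM in poly(A) and at 80.5, 55.0, 96.1 and 65.8 RPKM in nuclear libraries. All of its nuclear values were higher, with a difference of 1.97 (limma, adjusted p = 5.18e-05), but its length was 396 nt, the shortest of the members.

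CSLA6 had a length of 433 nt and fell from 14.0 to 4.41 RPKM on 10 nuclear reads, a difference of -1.62 (limma, adjusted p = 0.00538). The member OS02G0744650 has the same older locus name as CSLA6 in the table, and its levels of 22.1 and 18.1 RPKM did not differ by the test (limma, adjusted p = 0.270). Without nuclear replicate 2 its difference was -0.58 and called. CSLA5 was called higher at 0.62 (limma, adjusted p = 0.0205) and CSLA2 lower at -0.68 (limma, adjusted p = 0.0295). CSLA2 rested on 23 nuclear reads. The call of CSLA5 was lost with the length trend taken off, median centring or quantile normalization, at 0.47, 0.46 and 0.38, and without poly(A) replicate 1, at 0.58, or 4, at 0.56. That of CSLA2 was lost with equal library sums, the length trend taken off or voom, at -0.46, -0.55 and -0.77, and without poly(A) replicate 1, 2 or 3, at -0.68, -0.61 and -0.68, or nuclear replicate 3, at -0.66. CSLA7 at -0.36 and CSLA4 at 0.14 were not called, but CSLA7 was with the length trend taken off, median centring or voom, at -0.53, -0.52 and -0.41, and without nuclear replicate 1, at -0.48, and CSLA4 without nuclear replicate 4, at 0.50. CSLA9 was not called, at 0.26, and CSLA3 did not pass the filter.

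None of the 3 class E genes was called on the authors' scaling. CSLE2 was at 18.3, 18.0, 18.3 and 17.2 RPKM in poly(A) and at 27.7, 21.5, 20.3 and 20.0 RPKM in nuclear libraries. Its nuclear libraries were all above the poly(A) libraries, yet the difference of 0.29 missed the threshold (limma, adjusted p = 0.0978). It was called with equal library sums, at 0.54, and with voom, at 0.31. CSLE1 had a difference of -0.35 and CSLE6 of 0.67 (limma, adjusted p = 0.0770 and 0.104). CSLE1 was called lower with the length trend taken off, median centring or quantile normalization, at -0.61, -0.51 and -0.54, and without nuclear replicate 3, at -0.46. CSLE6 was called higher with voom, at 0.89, and without nuclear replicate 1, at 1.0.

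CSLH1 was the 1 class H gene that was tested. It was at 38.4, 41.2, 37.5 and 40.1 RPKM in poly(A) and at 29.5, 23.4, 37.2 and 26.2 RPKM in nuclear libraries, where replicate 3 came close to the poly(A) values. Its difference was -0.44 (limma, adjusted p = 0.0385), and the call was lost with equal library sums or quantile normalization, at -0.19 and -0.35, and when any library other than nuclear replicate 3 was left out, at -0.35 to -0.46. CSLH2 was below 0.3 RPKM in poly(A) and at 0 in all nuclear libraries, and CSLH3 was at 0 in all libraries of both pools.

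Seen as sums, the CSL genes took a larger place beside the CESA genes in nuclear RNA. The CESA genes summed to 1015, 1022, 911 and 876 RPKM in poly(A) and 915, 988, 860.5 and 858 RPKM in nuclear libraries, an overlap. The CSL genes summed to 598, 599.6, 591 and 558 RPKM in poly(A) and 1178, 1161, 1105 and 1027 RPKM in nuclear libraries, all of them higher. CESA over CSL was 1.63 ± 0.0850 in poly(A) and 0.810 ± 0.0383 in nuclear libraries (SD, n = 4 each), with ranges of 1.54 to 1.70 and 0.776 to 0.851. A factor common to all genes of a library cancels in this ratio, but quantile normalization or a length trend does not. Without ND1, the CSL genes still summed to 577 ± 18.7 and 979 ± 64.8 RPKM. CSLF6, 1 of those left in this sum, went from a mean of 89.7 to 294 RPKM. Of the 26 tested CSL genes, 12 were called higher and 6 lower. These were 46.2% and 23.1%, against 33.1% and 30.0% of all tested genes.

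By class, the summed level was 50.3 and 217 RPKM in poly(A) and nuclear RNA for class D, 93.7 and 306 RPKM for class F, and 149.8 and 264 RPKM for class C. Class A had sums of 226 and 269 RPKM, class E of 27.9 and 32.6 RPKM and class H of 39.4 and 29.1 RPKM. Single genes weighed heavily in some sums. CSLF6 alone went from 89.7 to 294 RPKM in class F, and ND1 from 9.25 to 139 RPKM in class D. In class A, the short CSLA11 went from 18.0 to 74.3 RPKM. The median difference of the tested genes was 1.59 in class D, 1.60 in class F, 0.65 in class C, 0.29 in class E, 0.04 in class A and -0.44 for the 1 gene of class H. Other scalings turned the sign in class A, to -0.12 with median centring, and in class E, to -0.10 with the length trend taken off. Class D had 4 of 4 tested genes higher, and class F 3 of 4 higher and 1 lower, where 33.1% of all tested genes were higher and 30.0% lower. These counts and medians include CSLD3, CSLF7 and CSLF9, which passed the filter only through the nuclear pool. They also include CSLF8, which passed it only through the poly(A) pool.

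**Figure D4:**
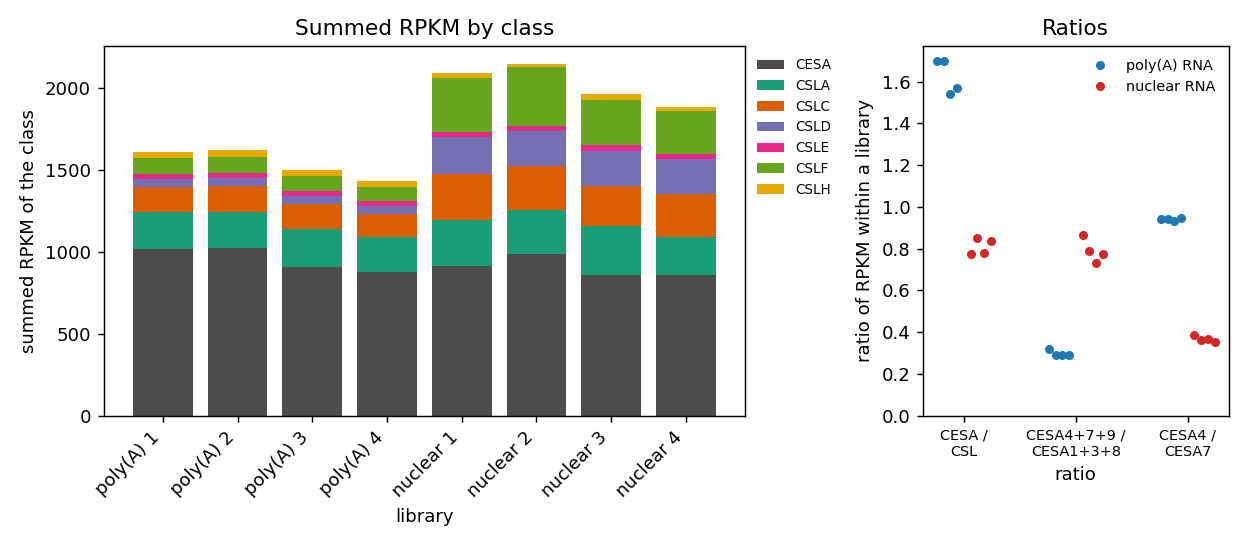
Left, RPKM summed over the genes of each class in each library (stacked bars). Right, 3 ratios in each library (points): CESA to CSL sums, the sum of CESA4, CESA7 and CESA9 to that of CESA1, CESA3 and CESA8, and CESA4 to CESA7. In nuclear libraries the CESA part is similar, the class D and F parts are larger, mostly through ND1 and CSLF6, and none of the 3 ratios overlaps between the pools. How often ratios of other genes overlap was not computed.

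Gene length moved with the difference across all genes: it rose by 0.302 for each doubling of length over 26928 genes (Spearman 0.200, a description across genes that are not independent). The median length was 3899 nt for the CESA genes, 2205 nt for the CSL genes and 1496 nt for all tested genes. With this trend taken off, the median difference was -0.47 over CESA and 0.19 over CSL genes. The difference between these medians was not tested.

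Genes around the same pathway are given by list, and each count stands against 33.1% of all tested genes higher and 30.0% lower. Sucrose synthases, which release UDP-glucose from sucrose, had 3 of 5 tested genes lower and 2 higher, with a median difference of -1.26. RSUS3, 1 of the 2 higher, had means of 0.476 RPKM in poly(A) and 1.22 RPKM in nuclear RNA. It thus passed the filter only through the nuclear pool. RSUS1 was at 342 ± 21.9 RPKM in poly(A) and 112 ± 22.4 RPKM in nuclear RNA, a difference of -1.62 (limma, adjusted p = 5.14e-05). RSUS2 went from 181 to 38.9 RPKM, a difference of -2.20 (limma, adjusted p = 4.11e-06). RSUS6 had the largest rise at 0.63 (limma, adjusted p = 0.0163), but the count of 2 higher sucrose synthases dropped to 0 or 1 when 1 library was left out, in 7 of 8 cases, and to 0 with median centring or the length trend taken off.

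Among 15 tested enzymes that make UDP-glucose or convert it and the sugars derived from it, 7 were lower and 3 higher. The count of 3 was 6 with voom, 5 with quantile normalization and 1 with a mean of at least 5 RPKM. Their median difference was -0.23, but 0.03 with equal library sums and 0.32 with quantile normalization. The UDP-glucuronic acid decarboxylase OS03G0278000, which makes UDP-xylose, fell from 645 ± 29.8 to 103 ± 13.7 RPKM (SD, n = 4 each; difference -2.65, limma, adjusted p = 1.66e-06). Another gene of the same annotation, OS05G0363200, rose from 281 ± 5.53 to 572 ± 54.7 RPKM (difference 1.02, limma, adjusted p = 1.22e-04). OS03G0147150, annotated as a UDP-glucose dehydrogenase, had the largest difference upward at 1.28 (limma, adjusted p = 0.0107), on 16 reads in each pool. Its mean was 0.103 RPKM in poly(A) and 1.99 RPKM in nuclear RNA, so it passed the filter only through the nuclear pool.

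COBRA-like proteins are membrane-anchored and take part in cellulose deposition. Of 4 tested, OS05G0386800 fell from 166 to 83.9 RPKM (difference -0.99, limma, adjusted p = 4.91e-04) and OS03G0301200 rose from 12.8 to 39.7 RPKM (difference 1.53, limma, adjusted p = 9.98e-05), with 2 genes higher under quantile normalization or with the length trend taken off. Their median was 0.12, or -0.04 with median centring. Genes annotated as endoglucanases had 7 of 10 tested genes higher and 2 lower, with a median of 1.09. Of the 7, OS05G0129200 passed the filter only through the nuclear pool, with means of 0.242 RPKM in poly(A) and 3.36 RPKM in nuclear RNA. OS04G0497200, annotated as KORRIGAN, a membrane endoglucanase of cellulose synthesis, rose from 157 ± 11.0 to 242 ± 34.4 RPKM (difference 0.61, limma, adjusted p = 0.00487). OS08G0425300 had the largest rise at 2.13 (limma, adjusted p = 1.94e-04). Both genes that fell, OS04G0552000 and OS05G0246300, were annotated as barwin-related, which is another kind of protein, and so was OS06G0725300, which was counted among the 7 higher at 0.87 (limma, adjusted p = 0.0455). OS04G0552000 differed by -1.21 (limma, adjusted p = 0.0259). Without poly(A) replicate 1, 2 or 4 only 1 of the endoglucanase genes was lower, and without poly(A) replicate 2 only 4 were higher, and with equal library sums none was lower.

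Callose synthases, which make a different glucan from the same sugar nucleotide, had 3 of 7 tested genes higher and 2 lower, with a median of -0.15, or 0.04 with equal library sums. OS06G0113150, annotated as similar to GSL8, went from 17.7 ± 3.24 to 197 ± 10.5 RPKM (difference 3.43, limma, adjusted p = 1.09e-06). GSL1 (OS06G0112800) fell from 65.7 to 23.0 RPKM (difference -1.56, limma, adjusted p = 0.00115). The lengths behind the RPKM of OS06G0113150 and GSL1 were 1505 and 1419 nt. Whether they are parts of the same gene was not tested. That list also held OS07G0552400, annotated as a mixed-linked glucan synthase, which the member rule did not take and which was at 0 in all libraries.

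Glycosyltransferases of xylan and xyloglucan, the polymers laid down around cellulose, had 19 of 25 tested genes higher and 1 lower, with a median of 1.11. Of the 19, OS04G0449100 and OS06G0212600 passed the filter only through the nuclear pool. Their poly(A) means were 0.0677 and 0.765 RPKM, and their nuclear means were 3.23 and 6.13 RPKM. OS05G0123100 was the most abundant and rose from 90.0 ± 3.87 to 207 ± 13.0 RPKM (difference 1.19, limma, adjusted p = 3.48e-05). OS01G0157700 had the largest rise at 2.41 (limma, adjusted p = 0.00189). OS05G0559600 fell from 40.1 to 29.1 RPKM (difference -0.46, limma, adjusted p = 0.0164). Without poly(A) replicate 2, or with equal library sums, no gene of this list was lower, and without nuclear replicate 3 there were 2.

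**Figure D5:**
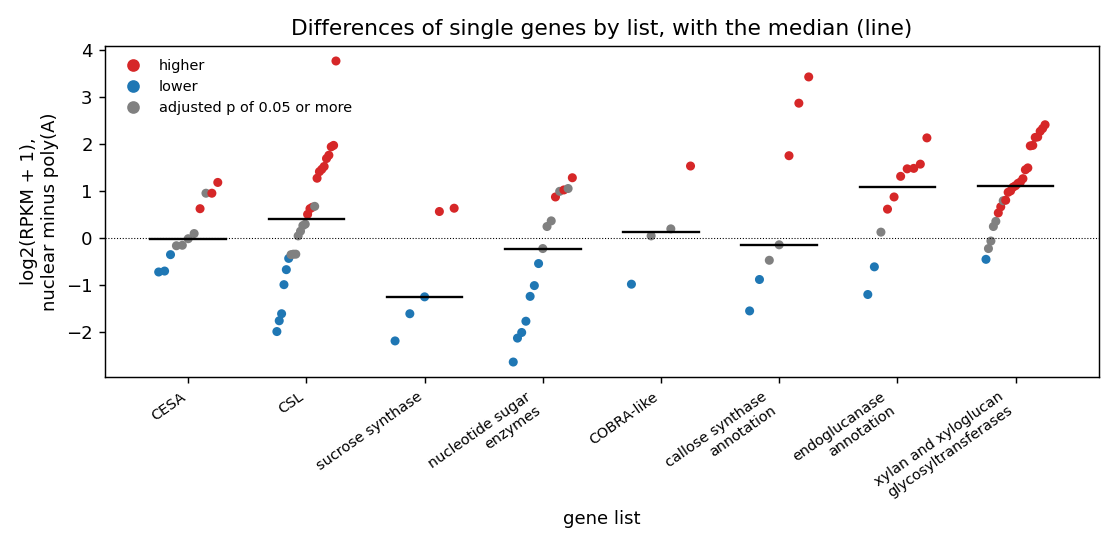
Difference of each tested gene (points, red higher, blue lower, grey not called) with the median of the list (black line), for the CESA and CSL genes and 6 lists of related cell wall genes. The median is -1.26 for sucrose synthases, -0.02 for CESA, 0.40 for CSL and 1.11 for the xylan and xyloglucan glycosyltransferases. Of these medians, all but that of CESA include genes that passed the filter only through the nuclear pool.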

How the data were processed

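The authors deposited RPKM for 8 libraries. The submitters' processing notes name TopHat2 2.1.1, CASAVA 1.8, FastQC and the genome build IRGSP-1.0. Which counter, strand setting and annotation release were used is not given in the sources used here. The table had 35694 lines for 35664 genes, and 29 repeated identifiers with equal values, CSLD2 among them, were counted once. Reads and gene lengths were recovered from the steps of the values: all 33191 genes above 0 gave whole reads within 0.0001. Differences were tested with limma 3.58.1 in R 4.3.3 on log2(RPKM + 1), without a replicate block, two-sided, with Benjamini-Hochberg adjustment over all 26928 genes, tested on simulated data first. The series states 4 biological replicates, on which every p-value rests. Alternatives were the pseudocount, the filter, scaling, a length trend, limma's voom on recovered reads, a replicate block and each library left out. The members and lists were chosen with earlier results of these data known. Values by library are given for all CESA genes, ND1 and, per CSL class, the most abundant and the most changed called member; related genes are the most abundant, most raised and most lowered of each list. Coordinates and sequences were not used here.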

Additional observations from a re-analysis of the deposited data

Results flagged for a closer look

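Of 74 sets of 4 libraries checked for a library far from the others, 2 held one by Dixon's criterion, which chance meets in about 1 of 20 sets. CSLC1 stood at 34.1 RPKM in poly(A) replicate 2, above the 28.6 to 29.3 RPKM of the other poly(A) libraries. CSLD3 stood at 2.15 RPKM in nuclear replicate 2, below the 7.06 to 7.29 RPKM of the other nuclear libraries. Without each library in turn, the differences of CSLC1 stayed between -2.29 and -1.61 and those of CSLD3 between 1.64 and 2.1, and both calls held.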

How the results depend on the processing

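In 17 alternatives the count of higher members was 14 to 18 and that of lower members 6 to 13, and the difference of ND1 was 3.31 to 4.07. Leaving out 1 library gave 14 to 17 higher and 6 to 9 lower members, medians of -0.11 to 0.02 for CESA and 0.34 to 0.51 for CSL, and 3.71 to 3.81 for ND1. The CESA median of -0.02 turned to 0.24 with equal library sums and 0.25 with quantile normalization, and became -0.47 with the length trend taken off, -0.16 with a mean of at least 5 RPKM, -0.18 with median centring and -0.16 with a pseudocount of 0.1. The CSL median of 0.40 became 0.65 with equal library sums and 0.19 with the length trend taken off. The median of all tested genes moved as well, from 0.08 to 0.29 with equal library sums. It was 0.00 with quantile normalization, 0.02 with the length trend taken off and -0.08 with median centring. CESA8 turned to 0.00 (limma, adjusted p = 0.986) and CESA3 to 0.25 (limma, adjusted p = 0.120) under quantile normalization, and CESA6 from -0.02 to 0.54 (limma, adjusted p = 0.00759). The cause of these moves was not tested. Of 36 members other than ND1, 16 kept call and direction under every alternative in which they were tested. CSLF7 and CSLF8, counted among these 16, were not tested with a mean of at least 5 RPKM. Among all genes, the share of calls that were higher was 52.5%, and 61.3% with equal library sums; voom called 10390 genes higher and 8225 lower. Replicate numbers did not pair the libraries: correlations of same-numbered deviations were -0.048 to 0.009. With the replicate block, 16 members were higher and 6 lower, the medians were -0.02 and 0.40, and ND1 differed by 3.77. The block ended the calls of CESA3 (limma, adjusted p = 0.0942), CSLH1 (0.0964) and CSLA2 (0.0685), and CESA10 was called (0.0353). Nuclear depth limits CSLC1, CSLA2, CSLA6, CSLA9, CSLF8, CESA10 and CESA11, each with under 50 nuclear reads. The alternatives for ratios of members and for the related gene lists were chosen after seeing the data; leaving out 1 library gave a log2 difference of -1.38 to -1.34 for CESA4 over CESA7.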
